A study of Homo sapiens with 12 samples.

Results

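A set of 103 genes was lowered by 5-Aza-dC in both L428 and L1236, of 7984 genes that were expressed in both untreated lines and 19775 genes measured. A gene was called expressed where its mean log2 signal was at least 6 in both untreated groups, read from 1 probe set per gene, the one with the highest mean over the 12 arrays. It was called lowered where the treated mean lay at least 0.8 below the untreated mean in each line and all 3 treated arrays lay below all 3 untreated arrays of that line. The members were thus chosen on the treatment contrast itself, so their falls are given as a description with a standard error (SE) and without a test. Both conditions were met by 3.18% of the expressed genes in L428 and by 10.8% in L1236, and together by 1.29%. A lower signal in bulk RNA can come from less transcript per cell or from fewer cells that carry it, which these arrays cannot tell apart.

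Both lines were established from classical Hodgkin lymphoma, whose malignant cells descend from B cells yet express few B-cell genes. Each line was measured on 3 arrays without treatment and on 3 arrays after 1 µM 5-Aza-dC for 24 h, a wash and another 72 h in normal medium. The labels state triplicates but not separate cultures, so each error measures only the spread between arrays, which may be technical. Each SE rests on a spread estimated over all groups together. It is therefore the same in both lines for a gene and does not give the spread within either line. In the untreated lines 12 of 14 Hodgkin marker genes reached 6 in both lines, while no gene of the T and NK cell, myeloid or B-cell lists did so. Of 14 stromal and epithelial marker genes, 2 reached 6 in both lines. TRAF1 and CCL22 were the Hodgkin markers that did not, and the B-cell genes PAX5 and POU2AF1 were high in L1236 only, at 11.78 and 13.41. One untreated L1236 array (replicate 1) has a source name that describes treated L428 cells. It was grouped by its description, and its values correlated best with untreated L1236 replicate 3, at r = 0.995 across genes.

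Decitabine, the drug written here as 5-Aza-dC, takes the place of deoxycytidine in newly made DNA and traps the methyltransferases there, so that methyl marks are diluted with each round of replication. The drug is best known for raising genes that promoter methylation had silenced. The genes described here are the opposite case, active genes whose transcripts were lower days after the drug. By known function the largest groups among them were signalling proteins with 13 genes, regulators of transcription and chromatin with 11, mitochondrial metabolism and upkeep with 10, the cytoskeleton and spindle with 10, sterol and lipid metabolism with 9, sugar and other metabolism with 9, and mitochondrial translation with 8. These role groups were assigned after the members were known. The same roles were not counted among all expressed genes, so the counts do not show that any role is common in the set.

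The rule asked for the same fall of 0.8 in both lines, so near medians in the 2 lines are partly set by it. The median change of the members was -1.08 in L428, with a range of -1.89 to -0.80. In L1236 it was -1.15, with a range of -3.33 to -0.80. Over all expressed genes the medians were -0.10 and -0.11. At least a 2-fold fall (1 on the log2 scale) was reached by 65 members in L428, by 76 in L1236 and by 48 in both. A 4-fold fall was reached by 8 members in L1236 and by 0 in L428. The change was larger in L1236 for 67 members and larger in L428 for 36. After treatment the mean signal of 14 members in L428 and of 11 in L1236 was under the floor of 6 used to call a gene expressed. In the mirror direction, 174 expressed genes (2.18%) lay higher by 0.8 or more without overlap in both lines, out of 4.4% in L428 and 8.1% in L1236.

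**Figure D1:**
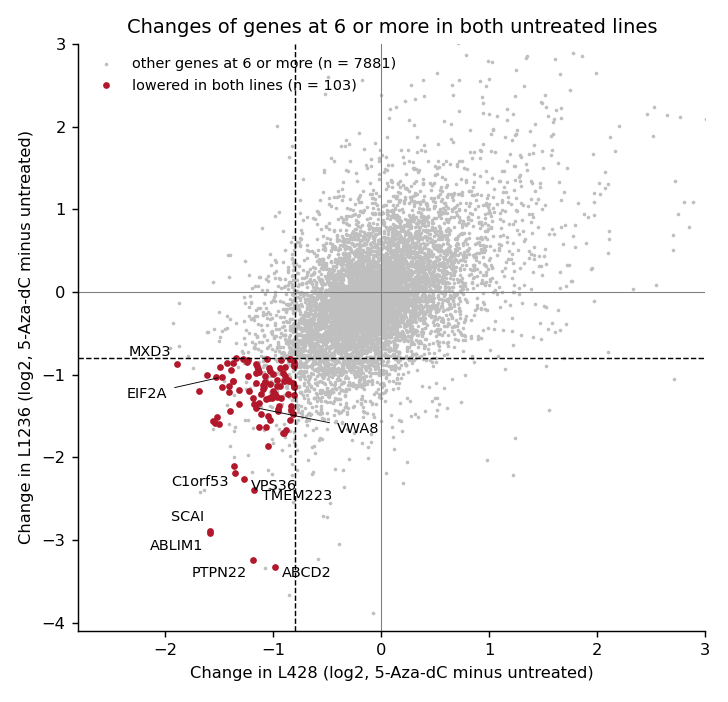
Change in L428 (x axis) against change in L1236 (y axis), both in log2 as treated mean minus untreated mean, for the expressed genes. Red points are the 103 lowered genes, grey points the other 7881, dashed lines mark -0.8, and 50 genes with larger changes lie outside the axes. The members fill the lower left corner, most between -0.8 and -1.5 on both axes, and a tail of 8 genes reaches below -2 in L1236 alone.

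The fall was uneven over the treated arrays. Measured from the untreated mean of the line, the median member stood at -0.41, -1.36 and -1.42 on treated L428 arrays 1, 2 and 3, and at -0.80, -1.37 and -1.42 on treated L1236 arrays 1, 2 and 3. Replicate 1 was the highest of the treated arrays for 97 of the 103 members in L428 and for 90 in L1236. On treated L428 replicate 1, 12 members lay 0.8 or more below the untreated mean, against 99 and 103 on replicates 2 and 3. Treated L428 replicate 1 also resembled the untreated L428 arrays more than its own group over all genes, with a best correlation of 0.989 to an untreated array, while other same-group correlations ran up to 0.998. The housekeeping genes had medians of 0.07 and 0.09 on the treated arrays numbered 1 and of -0.15 to -0.21 on those numbered 2 and 3. Why the arrays numbered 1 differed was not tested. Without these 2 arrays the median member changed by -1.40 in each line, and the rule then took 524 genes, among them 102 of the 103. SCAI and VPS36 were among the exceptions, and were as low on treated L428 replicate 1 as on the other treated L428 arrays.

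**Figure D2:**
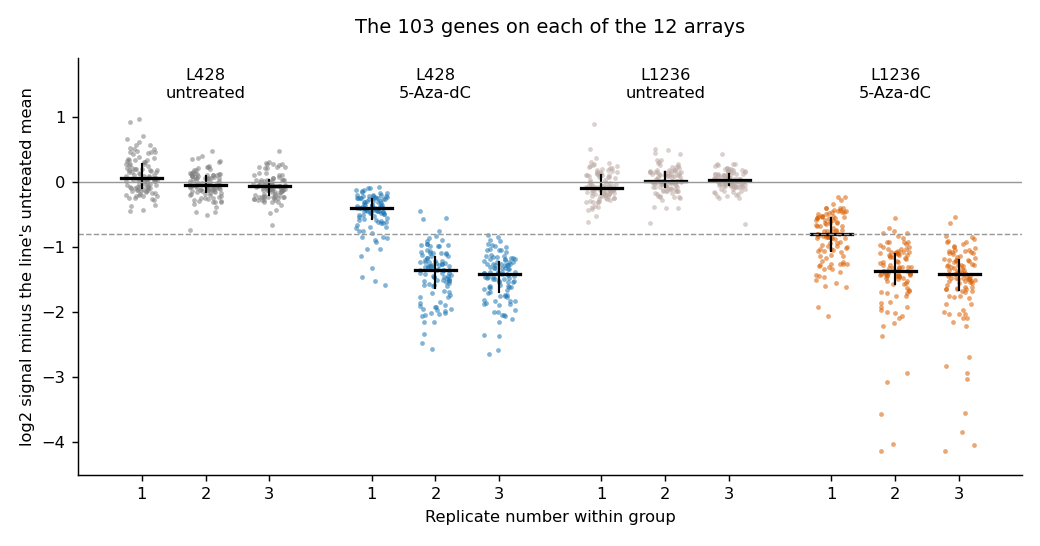
Each point is 1 of the 103 genes on 1 array, as its log2 signal minus the mean of the untreated arrays of the same line. Columns are the replicates of each group, black bars the median, vertical lines the quartiles, and the dashed line marks -0.8. Treated arrays 2 and 3 of both lines centre between -1.36 and -1.42, and treated array 1 lies higher, at -0.41 in L428 and -0.80 in L1236.

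SCAI, VPS36, VWA8 and EIF2A stand for 4 different processes. SCAI is a nuclear protein that binds the actin-regulated coactivators of the MRTF family and restrains their transcription with SRF, and it also acts with 53BP1 at broken DNA. It read 6.57, 6.46 and 6.40 in untreated L428 and 4.90, 5.07 and 4.72 after treatment, and 7.20, 7.77 and 7.79 in untreated L1236 and 5.52, 4.51 and 4.04 after treatment. In both lines every treated array lay more than 1 unit below every untreated array, and the treated L1236 arrays were spread more widely than the treated L428 arrays. The change was -1.58 ± 0.33 (SE) in L428 and -2.89 ± 0.33 in L1236, which left 33.5% and 13.5% of the untreated signal. The treated signals lay around the median over all genes of the treated arrays, 4.78 to 5.22. At such low signals the percentages may not measure the transcript left.

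VPS36 is a subunit of ESCRT-II, the complex that sorts ubiquitinated membrane proteins into multivesicular endosomes. Its signals were 6.95, 6.56 and 6.68 without and 5.41, 5.63 and 5.34 with the drug in L428, then 8.30, 8.32 and 8.34 without and 6.72, 6.16 and 5.30 with it in L1236. The untreated L1236 arrays were almost identical, and the treated ones ran down over more than 1 unit. VPS36 changed by -1.27 ± 0.30 in L428 and by -2.26 ± 0.30 in L1236.

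VWA8 is a mitochondrial ATPase of the AAA family. Its signals were 7.59, 6.94 and 7.18 without and 6.54, 5.88 and 5.82 with the drug in L428, then 9.10, 8.83 and 8.94 without and 7.68, 7.50 and 7.49 with it in L1236. The change was -1.16 ± 0.21 in L428 and -1.40 ± 0.21 in L1236, with all 3 treated L1236 arrays close together.

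EIF2A is an initiation factor that can bring initiator tRNA to the small ribosomal subunit outside the usual eIF2 route. It read 12.22, 12.02 and 11.94 without and 11.36, 10.33 and 10.06 with the drug in L428, then 12.68, 12.41 and 12.58 without and 11.51, 11.56 and 11.51 with it in L1236. Unlike SCAI and VPS36 it lay further down in L428, by -1.48 ± 0.28, than in L1236, by -1.03 ± 0.28.

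**Figure D3:**
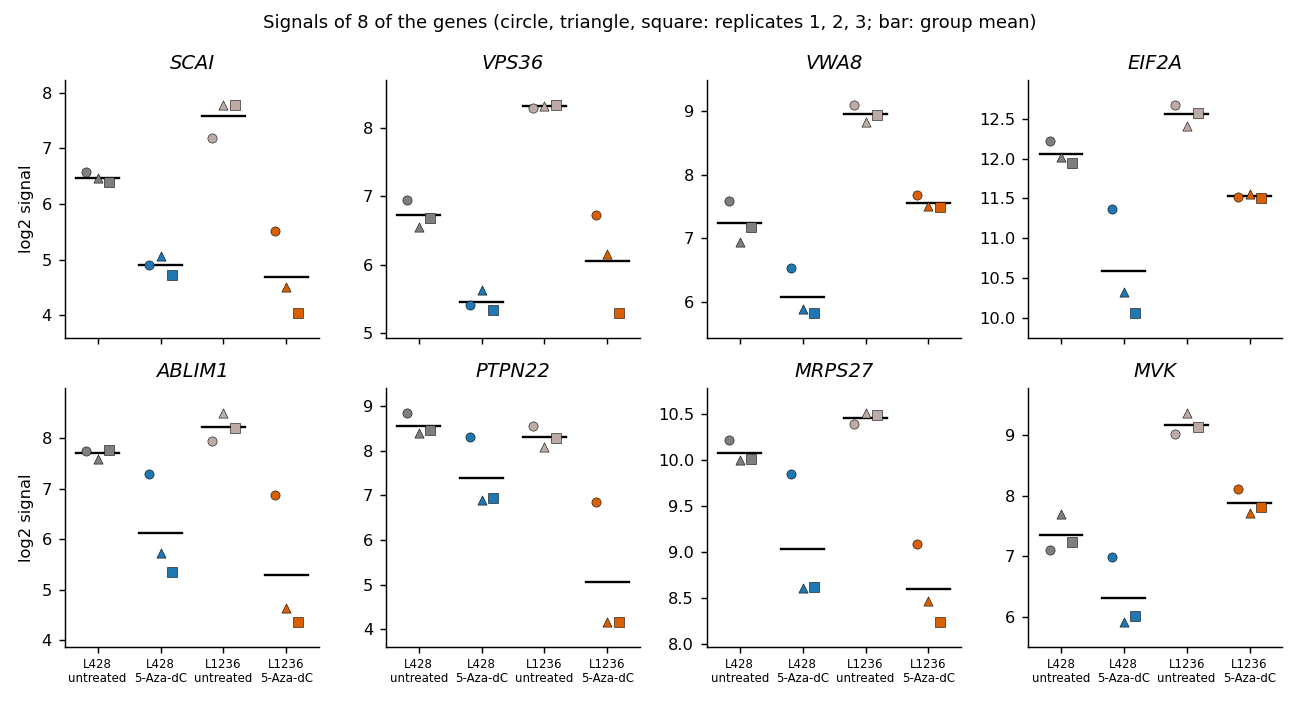
Log2 signals of 8 of the lowered genes on the 12 arrays, by line and treatment. Circles, triangles and squares are replicates 1, 2 and 3, and bars are group means (n = 3). In each panel all treated points lie below all untreated points of the line, and the circle is the highest treated point except for SCAI and VPS36 in L428 and EIF2A in L1236.

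The start regions of these 4 genes are shown because CpG dinucleotides are the sites that DNA methyltransferases modify, although methylation itself was not measured here. They are the 250 bases before the annotated start, from RefSeq on GRCh38.p14, written 5′ to 3′ on the strand of the gene with each CpG in capitals. SCAI is at chr9:125143529-125143778 on the minus strand, VPS36 at chr13:52450635-52450884 on the minus strand, VWA8 at chr13:41961110-41961359 on the minus strand, and EIF2A at chr3:150546537-150546786 on the plus strand.
SCAI: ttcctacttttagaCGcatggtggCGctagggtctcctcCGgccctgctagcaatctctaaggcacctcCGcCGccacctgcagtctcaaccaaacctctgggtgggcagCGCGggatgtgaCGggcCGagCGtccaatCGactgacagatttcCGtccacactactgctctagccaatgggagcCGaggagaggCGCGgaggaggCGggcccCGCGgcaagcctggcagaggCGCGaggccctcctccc
VPS36: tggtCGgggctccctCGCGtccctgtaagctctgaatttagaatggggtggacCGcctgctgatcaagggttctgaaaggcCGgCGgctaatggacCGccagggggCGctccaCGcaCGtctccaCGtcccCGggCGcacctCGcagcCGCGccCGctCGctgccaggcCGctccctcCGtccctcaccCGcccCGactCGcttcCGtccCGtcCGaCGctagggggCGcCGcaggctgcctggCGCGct
VWA8: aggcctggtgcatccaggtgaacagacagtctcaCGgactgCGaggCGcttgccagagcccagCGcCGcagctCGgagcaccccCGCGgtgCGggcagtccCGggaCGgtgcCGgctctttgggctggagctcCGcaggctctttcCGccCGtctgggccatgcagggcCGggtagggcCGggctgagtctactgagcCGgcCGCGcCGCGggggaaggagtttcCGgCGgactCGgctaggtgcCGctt
EIF2A: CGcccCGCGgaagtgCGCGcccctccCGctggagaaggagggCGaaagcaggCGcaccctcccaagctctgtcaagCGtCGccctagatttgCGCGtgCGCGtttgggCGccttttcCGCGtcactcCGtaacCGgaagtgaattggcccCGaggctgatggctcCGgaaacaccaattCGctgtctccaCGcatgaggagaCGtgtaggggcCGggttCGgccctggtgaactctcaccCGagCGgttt
All 4 are dense in CpG, with 20, 31, 26 and 28 sites in 250 bases.

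The deepest falls among the members in L1236 were those of ABCD2, PTPN22 and ABLIM1. ABCD2, a peroxisomal transporter of very long chain fatty acids, read 8.70, 8.45 and 8.63 in untreated L1236 and 6.67, 4.57 and 4.56 after treatment, a change of -3.33 ± 0.53, against -0.98 ± 0.53 in L428. PTPN22, a phosphatase that restrains antigen receptor signalling in lymphocytes, read 8.56, 8.07 and 8.30 in untreated L1236 and 6.85, 4.17 and 4.17 after treatment. ABLIM1, an actin-binding protein with LIM domains, read 7.95, 8.49 and 8.20 in untreated L1236 and 6.88, 4.65 and 4.37 after treatment. On treated L1236 arrays 2 and 3 all 3 genes lay below the median over all genes, 5.22 and 5.17. The depth of a fall is uncertain at such low signals. Below the untreated L1236 mean, treated arrays 1, 2 and 3 stood at -1.92, -4.02 and -4.04 for ABCD2, at -1.46, -4.14 and -4.14 for PTPN22 and at -1.33, -3.57 and -3.85 for ABLIM1, so array 1 showed the smallest fall in each. PTPN22 changed by -3.25 ± 0.69 in L1236 and -1.18 ± 0.69 in L428, and ABLIM1 by -2.92 ± 0.68 and -1.58 ± 0.68. The L1236 change minus the L428 change was -2.34 for ABCD2, -2.06 for PTPN22 and -1.33 for ABLIM1, the lowest 3 values among the members.

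Unlike the 4 genes above, these 3 start from windows that are poor in CpG, which is why their sequences are set beside them. ABLIM1 is at chr10:114685004-114685253, PTPN22 at chr1:113871713-113871962 and ABCD2 at chr12:39619804-39620053, all on the minus strand, again as the 250 bases before the start with CpG in capitals.
ABLIM1: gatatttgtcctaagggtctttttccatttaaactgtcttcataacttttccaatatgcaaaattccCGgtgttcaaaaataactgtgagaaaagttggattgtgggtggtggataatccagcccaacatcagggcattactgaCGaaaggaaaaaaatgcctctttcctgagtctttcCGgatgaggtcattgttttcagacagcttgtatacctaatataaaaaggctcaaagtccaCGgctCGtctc
PTPN22: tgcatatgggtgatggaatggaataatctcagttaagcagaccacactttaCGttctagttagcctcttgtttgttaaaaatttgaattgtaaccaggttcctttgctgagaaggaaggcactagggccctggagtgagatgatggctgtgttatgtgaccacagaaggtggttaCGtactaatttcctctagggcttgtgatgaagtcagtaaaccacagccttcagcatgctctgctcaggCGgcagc
ABCD2: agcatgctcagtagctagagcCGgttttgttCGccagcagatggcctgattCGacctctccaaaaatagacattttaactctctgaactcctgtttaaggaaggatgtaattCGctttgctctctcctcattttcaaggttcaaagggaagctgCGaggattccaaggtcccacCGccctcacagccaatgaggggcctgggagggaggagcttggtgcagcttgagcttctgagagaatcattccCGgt
They hold 5, 3 and 7 CpG sites. SCAI, whose change in L1236 was nearly as low as that of ABLIM1, has 20 in the same window, so the lowest changes did not all come from CpG-poor starts. VPS36, at -2.26 in L1236, has 31. PHACTR2, with 1 CpG in a window of 300 bases, changed by -1.20 in L1236. Whether CpG content bears on the falls was not tested.

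At the other end, MXD3, a MAX partner that opposes MYC, had the lowest change in L428. It read 10.22, 9.26 and 9.33 in untreated L428, 9.14, 7.05 and 6.97 after treatment, 7.72, 7.95 and 7.85 in untreated L1236, and 7.56, 6.41 and 6.93 after treatment. The change was -1.89 ± 0.57 in L428 and -0.88 ± 0.57 in L1236. The gap between the lowest untreated and the highest treated array was only 0.12 in L428 and 0.16 in L1236, since treated replicate 1 stayed near the untreated level. The adhesion receptor ADGRA3 and the glycogen branching enzyme GBE1 also lay further down in L428, by -1.61 ± 0.36 and -1.49 ± 0.39, than in L1236, by -1.01 ± 0.36 and -0.90 ± 0.39.

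The products of 18 members act in the mitochondrion, a count without a share over expressed genes beside it. The mitoribosome supplied MRPS27, MRPS15, MRPL9, MRPL23, MRPL24, MRPL45 and MRPL58, the last a peptidyl-tRNA hydrolase built into the large subunit, and CARS2 charges mitochondrial cysteine tRNA. MRPS27 read 10.22, 9.99 and 10.01 without and 9.85, 8.61 and 8.62 with the drug in L428, then 10.39, 10.51 and 10.48 without and 9.08, 8.47 and 8.24 with it in L1236. Its change was -1.05 ± 0.33 in L428 and -1.86 ± 0.33 in L1236, and the treated L428 array numbered 1 lay just under the untreated ones. Across these 8 genes the medians were -0.99 and -1.32, and only MRPL58 was lower in L428, at -1.37 against -1.07, while MRPS15 had -1.00 in each line.

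The other 10 mitochondrial members had medians of -1.06 in L428 and -1.42 in L1236. SUCLA2 makes succinate from succinyl-CoA with ATP, ALDH5A1 oxidises succinic semialdehyde, COQ2 starts the coenzyme Q pathway on its ring, IVD breaks down leucine, and ATP5F1D is a subunit of ATP synthase. OMA1, the inner membrane protease that cuts OPA1 under stress, changed by -0.81 ± 0.25 and -1.48 ± 0.25. ALDH5A1 changed by -1.50 ± 0.47 in L428 and -1.60 ± 0.47 in L1236, and SUCLA2 by -1.38 ± 0.31 and -0.95 ± 0.31. TMEM223, a mitochondrial membrane protein, had the lowest value of the group, at 7.65, 8.13 and 8.29 in untreated L1236 and 6.71, 5.09 and 5.09 after treatment, a change of -2.39 ± 0.47.

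The whole mitoribosome was then read from a list of every MRPL and MRPS gene, without regard to how each moved. Of 76 genes measured, 56 lay below 0 in L428 and 71 in L1236, where 58.8% and 58.6% of expressed genes did, and the list medians were -0.22 and -0.50. By limma at an adjusted p under 0.05, 25 of the 76 fell and 2 rose in L1236, or 32.9% lower where 11.9% of expressed genes fell and 9.56% rose. In L428 1 fell and 3 rose, against 2.67% lower and 3.47% higher among expressed genes. Without the 4 arrays numbered 1, 48 fell in L428 and 61 in L1236, or 63.2% and 80.3% against 31.4% and 35.9%. All of these counts include the 7 members, which were chosen on the same contrast.

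The NDUF genes, which encode subunits and assembly factors of respiratory complex I, held no member, and most of them lay below 0. Of 41 measured, 39 lay below 0 in L428 and 40 in L1236, where 58.8% and 58.6% of expressed genes did. The list medians were -0.35 and -0.62. In L1236 17 fell (41.5%) and 1 rose (2.44%), where 11.9% and 9.56% of expressed genes did. NDUFA7 was among those that fell, at -1.40 ± 0.34 (adjusted p = 0.0253 by limma). In L428 1 gene fell (2.44%), NDUFA6, and 0 rose, where 2.67% and 3.47% of expressed genes did. Without the arrays numbered 1, 31 (75.6%) fell in L428 and 37 (90.2%) in L1236, where 31.4% and 35.9% of expressed genes did. NDUFA7 and NDUFAF6, an assembly factor, were the 2 genes of the list that lay 0.8 or more lower in both lines, at -1.01 and -1.40 and at -0.88 and -1.15, and neither met the whole rule.

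**Figure D4:**
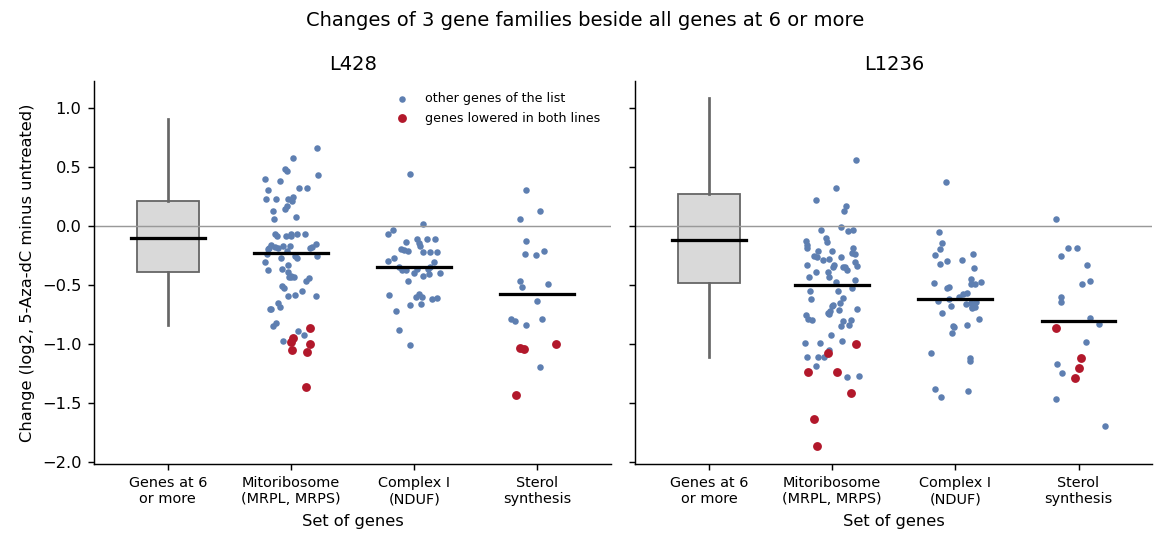
Changes in L428 (left) and L1236 (right), in log2 as treated minus untreated, for 76 mitoribosome genes, 41 complex I genes and 20 sterol synthesis genes, beside the expressed genes as a box of the quartiles with whiskers from the 5th to the 95th percentile. Red points are lowered members, blue points the other genes of each list, and black bars medians, which lie below that of the expressed genes for each of the 3 lists in both lines.

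Sterol and lipid metabolism contributed SREBF2, the transcription factor that drives the cholesterol pathway, MVK and MVD, which phosphorylate and decarboxylate its mevalonate intermediates, and SCD, the desaturase that makes oleate. MVK read 7.10, 7.70 and 7.24 without and 6.98, 5.93 and 6.02 with the drug in L428, then 9.01, 9.35 and 9.13 without and 8.11, 7.72 and 7.81 with it in L1236. Its change was -1.04 ± 0.28 and -1.28 ± 0.28, and that of SREBF2 was -1.03 ± 0.22 and -1.12 ± 0.22. In L1236 the treated arrays of MVK lay far below the untreated ones, while treated L428 replicate 1 lay only 0.12 under the lowest untreated array. PCYT2 makes phosphatidylethanolamine, PIGU belongs to the enzyme that attaches GPI anchors, CIDEB coats lipid droplets, and these 3 lay between -0.88 and -1.67 in both lines.

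The sterol pathway was read as a whole from 25 genes chosen after the members were seen, so it carries no test. Of the 20 measured, 17 lay below 0 in L428 and 19 in L1236, with medians of -0.58 and -0.81. Leaving out the 4 members, the medians of the other 16 were -0.48 and -0.62. MSMO1, a sterol oxidase, changed by -0.80 and -1.69, FDPS by -0.79 and -1.17, and INSIG1, which holds the SREBP proteins back, by 0.13 and 0.06. The medians of the sterol, mitoribosome and complex I lists lay below 0, and below the median of the expressed genes, in both lines under each of the 4 other array scalings tried.

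Regulators of transcription and chromatin had the lowest median in L428, at -1.32, and -1.17 in L1236. SUV39H1, the methyltransferase that writes trimethylated histone H3 lysine 9, changed by -1.09 ± 0.38 in L428 and -1.17 ± 0.38 in L1236. JADE1 and ING5, subunits of histone acetyltransferase complexes, lay at -1.08 and -0.89 in L428 and at -1.15 and -1.08 in L1236. TDRD3 reads arginine-methylated histones, and HIVEP3 and the zinc finger proteins ZNF33A, ZNF33B, ZNF609 and ZNF652 bind DNA. ZNF33A changed by -1.55 ± 0.44 and -1.56 ± 0.44 and ZNF33B by -1.18 ± 0.48 and -1.35 ± 0.48, but they are near-identical paralogues whose probes may share signal. ZNF652 changed by -1.40 ± 0.39 and -1.14 ± 0.39. Of 456 ZNF genes measured, 2 fell and 18 rose in L428 and 14 fell and 34 rose in L1236, where 1.34% and 6.35% of all genes fell and 3.32% and 8.59% rose. Without the arrays numbered 1, 30 fell (6.58%) and 149 rose (32.7%) in L428, where 14.6% and 14.4% of all genes did. In L1236 52 fell (11.4%) and 91 rose (20%) at that setting, where 17.7% and 16.7% of all genes did.

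Among signalling genes, members sat at several levels of kinase cascades. MAP4K1, MAP3K12, MAP2K5 and PAK2 are kinases of stress and growth pathways, PRKCA is a protein kinase C, CAMK2G a calcium-dependent kinase and CAMK2N2 an inhibitor of that family. GNA12 is a G protein subunit, ITPR2 a calcium channel of the endoplasmic reticulum, SMAD5 carries BMP signals and NPRL3 belongs to GATOR1, which restrains mTORC1. NPRL3 read 8.16, 8.38 and 8.31 without and 8.06, 5.81 and 6.43 with the drug in L428, then 7.09, 7.53 and 7.25 without and 6.43, 5.27 and 5.64 with it in L1236. Its first treated L428 array lay only 0.10 under the lowest untreated one, and the other treated arrays of that line lay far lower. NPRL3 changed by -1.52 ± 0.52 in L428 and -1.51 ± 0.52 in L1236, MAP4K1, a kinase of blood cells, by -1.00 ± 0.36 and -1.28 ± 0.36, and PRKCA by -1.16 ± 0.30 and -1.11 ± 0.30. The 13 genes had medians of -1.15 and -1.01.

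The cytoskeletal members included WAS, which switches on actin branching in blood cells, the actin bundler PLS1, and the microtubule proteins SPAST, EML1 and SLAIN1. GPSM2 orients the spindle and PMF1 sits in the kinetochore. PHACTR2, which binds actin and a phosphatase, changed by -1.68 ± 0.45 in L428 and -1.20 ± 0.45 in L1236, and PMF1 by -0.90 ± 0.34 and -1.70 ± 0.34. The 10 genes had medians of -1.09 and -1.30.

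In membrane traffic, VPS26B is a retromer subunit, VAMP4 a SNARE of the trans-Golgi, TRAK1 an adaptor that hangs mitochondria on kinesin, and TANGO6 a protein linked to Golgi organisation. VPS26B changed by -1.47 ± 0.44 and -1.15 ± 0.44. Among RNA genes, EXOSC10 and DIS3L are the nucleases of the nuclear and cytoplasmic RNA exosome, and they changed by -0.85 ± 0.28 and -0.81 ± 0.27 in L428 and by -1.08 ± 0.28 and -1.11 ± 0.27 in L1236. In DNA repair and ubiquitin, PRKDC, the catalytic subunit of the DNA-dependent protein kinase, read 12.84, 12.68 and 12.69 without and 12.33, 11.76 and 11.70 with the drug in L428, then 12.47, 12.61 and 12.73 without and 12.02, 11.55 and 11.54 with it in L1236. The change of PRKDC was -0.81 ± 0.18 and -0.90 ± 0.18, at the shallow end of the set but with small error. Sugar metabolism held KHK, which phosphorylates fructose, with -1.36 ± 0.56 and -2.10 ± 0.56. Treated L428 replicate 1 of KHK lay only 0.004 under the lowest untreated array, so its place in the set is narrow. C1orf53, a gene without a settled role, changed by -1.35 ± 0.34 and -2.19 ± 0.34.

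The pathways of the 4 lead genes were read from lists by limma at an adjusted p under 0.05, and these counts include members, which were chosen on the same contrast. Over all genes measured, 1.34% fell and 3.32% rose in L428, and 6.35% fell and 8.59% rose in L1236. Most genes of these lists were expressed, and the expressed genes are the closer background. Among expressed genes 2.67% fell and 3.47% rose in L428, and 11.9% fell and 9.56% rose in L1236. Of 26 ESCRT genes, the only lower one in either line was the member VPS36, whose direction the rule had fixed. CHMP5 was higher in L428 (3.85% of the list), and TSG101, VPS37A, VPS37B and VPS37C were higher in L1236 (15.4%).

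Of 41 translation initiation genes, 2 fell in L428 (4.88%), the member EIF2A and EIF3A, and 2 rose (4.88%). In L1236 8 fell (19.5%), EIF2A among them, and 3 rose (7.32%). EIF3E, EIF3F, EIF3H and EIF3K, subunits of the eIF3 scaffold, were also among the 8, with changes of -0.45 to -0.76. Of 24 genes of the MRTF and SRF axis that SCAI restrains, the only lower one in L428 was SCAI itself, and 1 rose (4.17%). In L1236 9 rose (37.5%) and 3 fell (12.5%), SCAI among them. The genes that rose in L1236 included the integrin ITGB1 at 2.50 ± 0.18, the myosin light chain MYL9 at 4.27 ± 0.38 and the smooth muscle actin ACTA2 at 1.94 ± 0.37. Whether the level of SCAI bears on these genes was not tested.

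Of 27 genes of 53BP1-dependent break repair, the only lower ones in L428 were the members SCAI and PRKDC, whose direction the rule had fixed. In L1236 6 fell (22.2%), both members among them, and 1 rose (3.70%). TP53BP1 itself was the gene that rose, by 1.32 ± 0.19 (adjusted p = 0.00237 by limma). Of 22 mitochondrial proteases and chaperones, the only one called in L428 was the member VWA8. In L1236 5 fell (22.7%), the members VWA8 and OMA1 together with TRAP1, PMPCB and DNAJA3, and 2 rose (9.09%). Of 32 vesicle tethering and retromer genes, 4 fell and 4 rose in L1236 (12.5% each), and VPS26B was not among those called. Over all 340 genes of the pathway lists, 10 fell (2.94%) and 6 rose (1.76%) in L428, near the 2.67% and 3.47% of expressed genes. In L1236 52 fell (15.3%) and 34 rose (10%), where 11.9% and 9.56% of expressed genes did. With the replicate number as a block over all 12 arrays, 19 fell and 11 rose in L428, where 4.22% of expressed genes fell and 4.22% rose. Without the 4 arrays numbered 1, 103 fell and 60 rose in L428 and 134 fell and 75 rose in L1236, where 31.4% and 35.9% of expressed genes fell and 20.4% and 23.1% rose.

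The rule compared each line only with itself. It used the untreated values, in the floor of 6 and in the fall of each line, but not the difference between the untreated lines, so the calls of that difference are not fully independent of how the members were chosen. Of the 103 members, 39 differed by limma at an adjusted p under 0.05, 26 higher and 13 lower in L1236. Among all expressed genes 46.4% differed, 23.7% higher and 22.6% lower, against 37.9% of the members. Over all genes measured the share was 28.8%. With each array centred on its median over all genes, 21 members were higher and 18 lower. That centring shifts the line difference of every gene. The share over expressed genes is not given at that setting, so these counts do not single out the members. With the replicate number as a block 44 members differed, against 49.9% of expressed genes, and 38 of them were called in both fits. Without all arrays numbered 1 the count was 66 (background 65.5%), without the treated arrays numbered 1 it was 62 (56.9%), and with array weights 73 (72.4%). From the 6 untreated arrays alone it was 58, without a background share at that setting. The main fit shares its spread with the treated arrays. The median standard deviation of the members was 0.57 in treated L428 and 0.37 in treated L1236, against 0.21 and 0.17 untreated. The lower share of members called therefore does not show that their untreated levels were closer. The median member lay 0.24 higher in L1236.

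VPS36 and VWA8 were higher in untreated L1236, by 1.59 ± 0.30 (adjusted p = 0.0029 by limma) and 1.72 ± 0.21 (adjusted p = 0.000229), and SCAI by 1.11 ± 0.33 (adjusted p = 0.0328). Each was higher in 3 of 3 untreated L1236 arrays than in any untreated L428 array. After treatment VPS36 and VWA8 in L1236 averaged 6.06 and 7.56, where the untreated L428 means were 6.73 and 7.24. The SCAI call was lost without any 1 of the untreated L428 arrays and without untreated L1236 replicate 2 or 3, with adjusted p up to 0.105 by limma. EIF2A lay 0.50 ± 0.28 higher in L1236 and was not called (adjusted p = 0.263 by limma), but was called without treated L428 replicate 1 (adjusted p = 0.00524).

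The largest line differences among the members were those of C1orf53, at 3.01 ± 0.34 higher in L1236, TMX3, a thioredoxin-like membrane protein, at 2.86 ± 0.19, TDRD3 at 2.79 ± 0.33 and NUDT3, a phosphohydrolase of inositol polyphosphates, at 2.16 ± 0.40, with adjusted p of 0.000129, 4.91e-06, 0.000192 and 0.0027 by limma. In the other direction, the untreated L1236 mean minus the L428 mean was -2.95 ± 0.42 for BMS1P1, -2.52 ± 0.39 for ANKRD44, -2.29 ± 0.32 for SAMM50, which folds barrel proteins into the mitochondrial outer membrane, and -2.02 ± 0.30 for PRKCA, with adjusted p of 0.000621, 0.000982, 0.000489 and 0.000791. These 8 calls held when each array was left out in turn. Their changes after treatment lay between -0.80 and -1.36, apart from -1.48 for NUDT3, -1.63 for ANKRD44 and -2.19 for C1orf53 in L1236. BMS1P1 is a pseudogene whose probes may also read its parent, as may those of RPL7AP10 and of LOC646214, which resembles the member PAK2.

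Probe sets that the rule did not choose were also read, on the same arrays, so they are not independent support for the falls. Of the members, 28 had 1 probe set, and the other 75 had 155 further ones, of which 74 in 47 genes were at 6 or more in both untreated lines. Of these 74, 70 (94.6%) lay lower in both lines, with medians of -0.95 and -1.05, and 25 (33.8%) in 23 genes met the whole rule. For other expressed genes 43.7% of 5378 such probe sets lay lower in both lines and 2.05% met the rule. The members had been chosen for falls on these arrays and the other genes had not, so the difference is only a description. PTPN22 was read by 3 probe sets at 6 or more, and the 2 others gave -1.50 and -1.34 in L428 and -2.84 and -2.94 in L1236.

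The probe sets did not all tell the same story. For PRKCA, 2 others changed by -0.26 and -0.15 in L428 and by 0.70 and 0.47 in L1236, against -1.16 and -1.11 for the chosen one. For SMAD5, 1 other changed by -0.98 and -0.97, and 3 lay between -0.26 and -0.13 in L428 and between -0.12 and 0.40 in L1236. The 4 other probe sets of PAK2 lay between -0.62 and -0.84 in L428 and between -0.19 and -0.65 in L1236. For TRAK1, 1 other changed by -1.06 and -1.09 and another by -0.54 and -0.13. For HIVEP3, 1 other at 6 or more changed by -0.75 in L428 and -0.07 in L1236. The other probe sets of SCD changed by -0.796, -0.35 and -0.24 in L428 and by -1.15, -1.24 and -1.13 in L1236. They met the fall condition in L1236 but not in L428. Near the floor, an ING5 probe set with untreated means of 6.08 in L428 and 5.94 in L1236 changed by 0.02 and 0.07. Another ING5 probe set, at 5.87 and 5.98, changed by -0.38 and 0.22. Probe sets of 1 gene can read different transcript ends, and which transcripts they read was not tested.

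**Figure D5:**
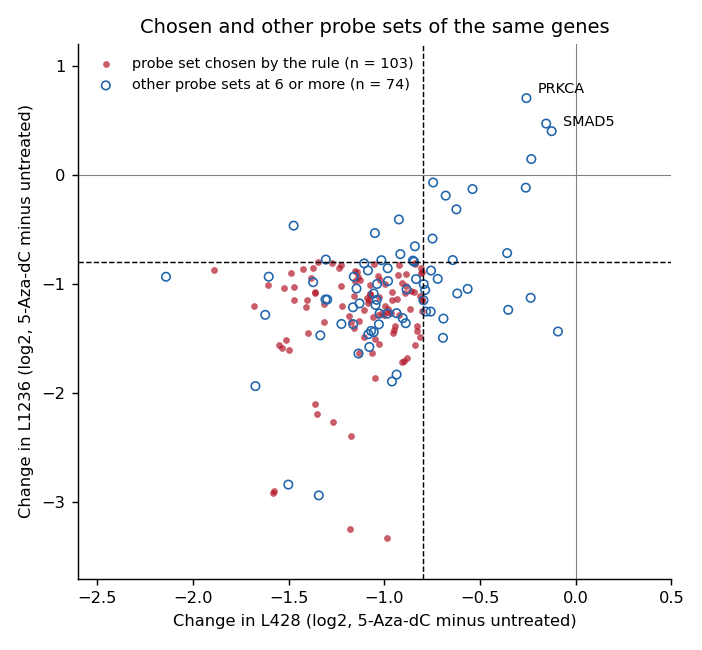
Change in L428 (x axis) against change in L1236 (y axis), in log2, for the 103 chosen probe sets (red) and the 74 other probe sets of the same genes at 6 or more (blue rings), with dashed lines at -0.8. Most rings lie in the lower left with the red points, and those near or above 0 in L1236 include PRKCA and SMAD5.

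The CpG content of the members' start regions lay near that of other expressed genes. A RefSeq window of 300 bases, from 250 before to 50 after the start, was matched for 89 of the 103 members and for 6663 other expressed genes. The median CpG count was 28 in the members and 27 in the others, and 92.1% of the members and 92.8% of the others held at least 10. Among all 27305 windows of the table the median was 14. PHACTR2 and MYO3B, with 1 CpG each, and SUV39H1, with 7, were further members with few.

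Of 8 short motifs searched on both strands, GGGCGG, the GC box, was in 70.8% of the members and 72.2% of the others, and CCAAT in 46.1% and 38.4%. CCGGAA, the core of ETS sites, was in 21.3% and 35%, TGACGT, part of the CRE, in 6.74% and 13.3%, GATGGCG, the YY1 site, in 4.49% and 9.26%, and CACGTG, the E-box, in 6.74% and 11.1%. GCGCATG, part of the NRF1 site, was in 16.9% and 8.69%, and TATAAA, the TATA box, in 4.49% and 4.83%. Over all windows the shares ran from 4.35% for GATGGCG to 44.6% for GGGCGG, with 35.7% for CCAAT, 17.6% for CCGGAA, 12% for TATAAA, 8.32% for TGACGT, 7.43% for CACGTG and 4.67% for GCGCATG. A match describes the letters of the window and is not a bound site. The 4 lead genes held CCAAT in SCAI and EIF2A, GGGCGG in VPS36 and VWA8, and CCGGAA in VWA8 and EIF2A within the 250 bases printed above.

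In the genome the members lay on most chromosomes, with 16 of 806 expressed genes (1.99%) on chromosome 1 and 6 of 143 (4.2%) on chromosome 13, where VPS36 and VWA8 lie, against 1.29% over all chromosomes. Among the members with a start window, SUV39H1 and WAS start 18 kb apart on the X chromosome, and C15orf61 and MAP2K5 start 21 kb apart on chromosome 15. WAS changed by -1.01 and -1.26 and SUV39H1 by -1.09 and -1.17. The genes of the members spanned a median of 42.5 kb, with quartiles of 17.5 and 102 kb, against 29.8 kb, with quartiles of 12.6 and 66.8 kb, for other expressed genes.

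Genes on either side of the thresholds differed little. Just inside by the weaker change were CAMK2G, TANGO6 and SAMM50, each at -0.80, and just outside were ALG6, NPM3 and GRHPR, also at -0.80 after rounding. On the floor, POFUT4 with 6.01 was just in and MAP3K7CL with 5.96 just out. A further 464 expressed genes had no overlap in either line but a change short of 0.8 in at least 1 line, 115 had both changes but overlapping arrays, and 20 met all but the floor. The 151 genes that met the condition in L428 but not in L1236 had a median change of -0.38 in L1236, with 120 below 0, where 58.6% of expressed genes lay below 0. The 756 that met it in L1236 but not in L428 had a median of -0.43 in L428, with 657 below 0, where 58.8% of expressed genes did. Of these 756, 103 also lay 0.8 or more lower in L428 and missed the condition only by overlapping arrays, as did 2 of the 151 in L1236. The 103 members were 40.6% of the genes lowered in L428 and 12% of those lowered in L1236.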

How the data were processed

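The deposited table held log2 signals per probe set, made by the authors with RMA (robust multichip averaging), as the submitters' processing notes name it. Any further scaling is not given in the sources used here. The design text names a Gene 1.0 ST array, while the probe set identifiers belong to a 3′ expression array. Of 54675 probe sets, 41097 had 1 symbol in the platform annotation, 1801 had several, and 11777 had none, control sets aside. Symbols were updated through Entrez and RefSeq, and 1 probe set per gene was kept, which left 19775 genes.

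Group means were fitted over all 12 arrays with limma 3.58.1 (R 4.3.3; lmFit, eBayes, Benjamini-Hochberg over all genes), called at an adjusted p under 0.05. The steps were tested on simulated data. The number of arrays limits the precision. The members and lists were chosen with earlier results of these data known. Genes were named by rule: the 4 lead genes, the 8 lowest mean changes, the 3 largest line differences in each direction, the 3 on each side of the threshold, up to 3 per list, the 4 largest untreated differences in each direction and the 3 whose other probe sets moved least downward. Other genes named for their role were chosen after their values were seen.

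Same-numbered arrays deviated together between untreated L428 and untreated L1236 (r = 0.36, 0.20 and 0.11 for numbers 1, 2 and 3). They also did so between untreated and treated L428 (0.25, 0.17 and 0.16). The values were highest between treated L428 and treated L1236 (0.40, 0.31 and 0.24), the arrays on which the rule asks for falls in both lines. Between untreated L428 and treated L1236 they were 0.20, 0.05 and 0.24. Little was shared between untreated and treated L1236 (0.05, -0.02 and 0.06) or between treated L428 and untreated L1236 (-0.04, -0.12 and 0.02). The number thus pairs some groups by the data and not others, and the labels do not say what it marks. Alternatives covered scaling, probe set choice, thresholds, array weights, the replicate block and leaving out arrays.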

Additional observations from a re-analysis of the deposited data

How the results depend on the processing

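The number of genes meeting the rule depended on the arrays and thresholds. It was 197 at a fall of 0.6, 48 at a fall of 1.0, 501 without all arrays numbered 1 (with 100 of the 103 members) and 997 with each array centred on its median over all genes, which moved the all-gene median change to -0.453 in L428 and -0.510 in L1236. Without both treated arrays numbered 1, chosen after seeing the data, it was 524. Leaving out each array in turn gave 77 to 376, the highest without treated L428 replicate 1. The median change of the members in L1236 was -1.63 with the all-gene centring. With the probe set of largest variance, PRKCA changed by 0.70 and SMAD5 by 0.40 in L1236, the reverse of their reported direction. The members called between the untreated lines by limma numbered 66 without all arrays numbered 1, 62 without both treated arrays numbered 1 and 73 with array weights, against 39, and 28 to 56 when each array was left out.

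For the 340 genes of the pathway lists, leaving out all arrays numbered 1 gave 60 higher and 103 lower in L428 and 75 higher and 134 lower in L1236. The replicate block gave 11 higher and 19 lower in L428. Leaving out each array in turn gave 3 to 25 higher and 1 to 55 lower in L428, and 13 to 43 higher and 17 to 84 lower in L1236. Across all these settings the cause was not tested. With 3 arrays a group and 1 series of arrays, low signals near the floor and small line differences are the least certain.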
